A study of Mus with 12 samples.

Results

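The genes described here are the RING finger (Rnf), tripartite motif (Trim) and membrane-associated RING-CH (March) genes with an m6A peak in mouse liver. A gene was taken when its name began with Rnf, Trim or March followed by a number and when it had a peak in at least 1 of the 6 peak lists. Trim54 and Trim63 were left out, because both are also skeletal muscle markers. The rule found 75 members, 45 Rnf, 25 Trim and 5 March genes, of 7906 genes with a peak in the series. Their 524 peaks were 0.764% of all 68562 peaks. Overlapping peaks of different livers (1 shared base or more) were joined, which gave 151 member regions of 18374 regions in all. Apart from leaving out Trim54 and Trim63, the rule used gene names and the presence of any peak. It used neither the diet nor the height of a peak.

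The study fed male C57BL/6J mice from 6 weeks of age a high-fat diet with 60% of the energy from fat (HFD) or a low-fat diet with 10% of the energy from fat (WT) for 12 weeks. All mice were of the same strain, no engineered allele is named for them, and WT here names the low-fat diet. MeRIP-seq pulls down fragmented mRNA with an antibody against N6-methyladenosine (m6A), and peaks mark stretches of RNA that are more frequent in the immunoprecipitate than in the input. Each of 3 HFD and 3 WT livers gave 1 peak list, and the groups were read from the sample titles because the diet label gives the high-fat diet for every sample. The value of a peak is its fold enrichment over the input, as deposited by the authors, so a gene needs expression, methylation and enough reads to have a peak. Of 17 hepatocyte markers 7 had a peak in any list, and Alb, the gene of serum albumin, had none. The tissue was whole liver, in which fewer cells of a type and less RNA per cell cannot be told apart.

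Ubiquitin is attached to proteins by a relay of an activating enzyme (E1), a conjugating enzyme (E2) and a ligase (E3) that chooses the target. RING ligases hold the E2 and the target together through a zinc-binding RING domain, and in TRIM proteins the RING is followed by B-box and coiled-coil domains. In liver such ligases are known for the turnover of sterol enzymes at the endoplasmic reticulum, for innate immune signaling and for marking histones. Gene ontology terms in the deposited lists name 54 of the 75 members as ubiquitin transferases or ligases and 67 as zinc-binding. Trim44 and Trim29 are known to lack a RING domain, so membership rests on the family name and not on ligase activity.

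HFD 1, HFD 2 and HFD 3 had a peak in 57, 47 and 50 members, against 50, 46 and 60 in WT 1, WT 2 and WT 3. The mean was 51.3 ± 5.13 members in HFD livers and 52.0 ± 7.21 in WT livers (SD, n = 3 each), and the difference of -0.667 was smaller than the spread within either group. Member peaks numbered 107, 87 and 80 in HFD livers, against 81, 73 and 96 in WT livers. HFD 1 and WT 3, the livers with the longest lists (12898 and 12966 peaks), also had the most members, and the other 4 lists held 10109 to 11925 peaks. As a share of all genes with a peak the members made up 0.886%, 0.794% and 0.944% in HFD livers, against 0.941%, 0.864% and 0.936% in WT livers, and these ranges overlapped.

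**Figure D1:**
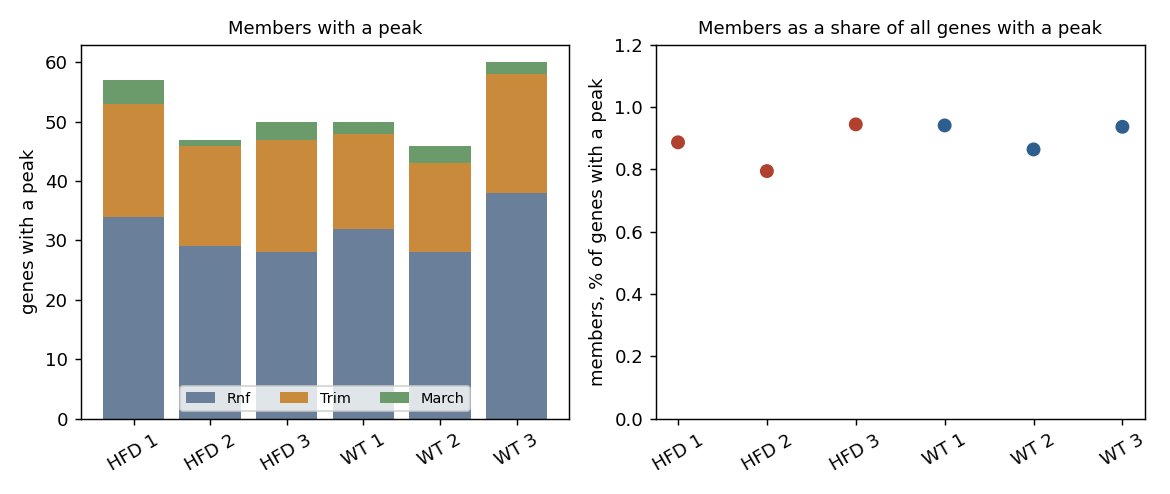
Members with a peak in each liver, HFD livers on the left and WT livers on the right. The stacked bars count Rnf, Trim and March genes, and the points give all members as a percent of the genes with a peak in that liver. The bars reach 57 in HFD 1 and 60 in WT 3, while the shares lie between 0.794% and 0.944% in every liver.

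A peak was found in all 6 livers for 35 of the 75 members (46.7%), against 49.2% of all genes with a peak. Another 16 members had a peak in only 1 liver (21.3%, against 14.1% of all genes). Among the families, 15 of 25 Trim genes, 19 of 45 Rnf genes and 1 of 5 March genes were in all 6 lists. More HFD than WT livers had a peak for 15 members, more WT than HFD livers for 16 members, and 44 members had equal numbers. The shares over all genes were not computed for these counts. By region, 48 had a peak in more HFD livers (29.9% of all regions), 33 in more WT livers (23.2% of all) and 70 in equal numbers (46.9% of all). Of the 151 regions, 47 were found in all 6 livers (31.1%, against 34.0% of all regions). Another 47 were found in a single liver (31.1%, against 23.7% of all). The single-liver regions were lower, with a median fold enrichment of 5.22, against 11.2 for the regions found in all 6. Over all regions of the series these medians were similar, at 5.18 and 10.19. HFD 1, HFD 2 and HFD 3 held 16, 4 and 9 of the single-liver regions, against 4, 3 and 11 in WT 1, WT 2 and WT 3, so 27 of the 47 came from the livers with the longest lists.

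**Figure D2:**
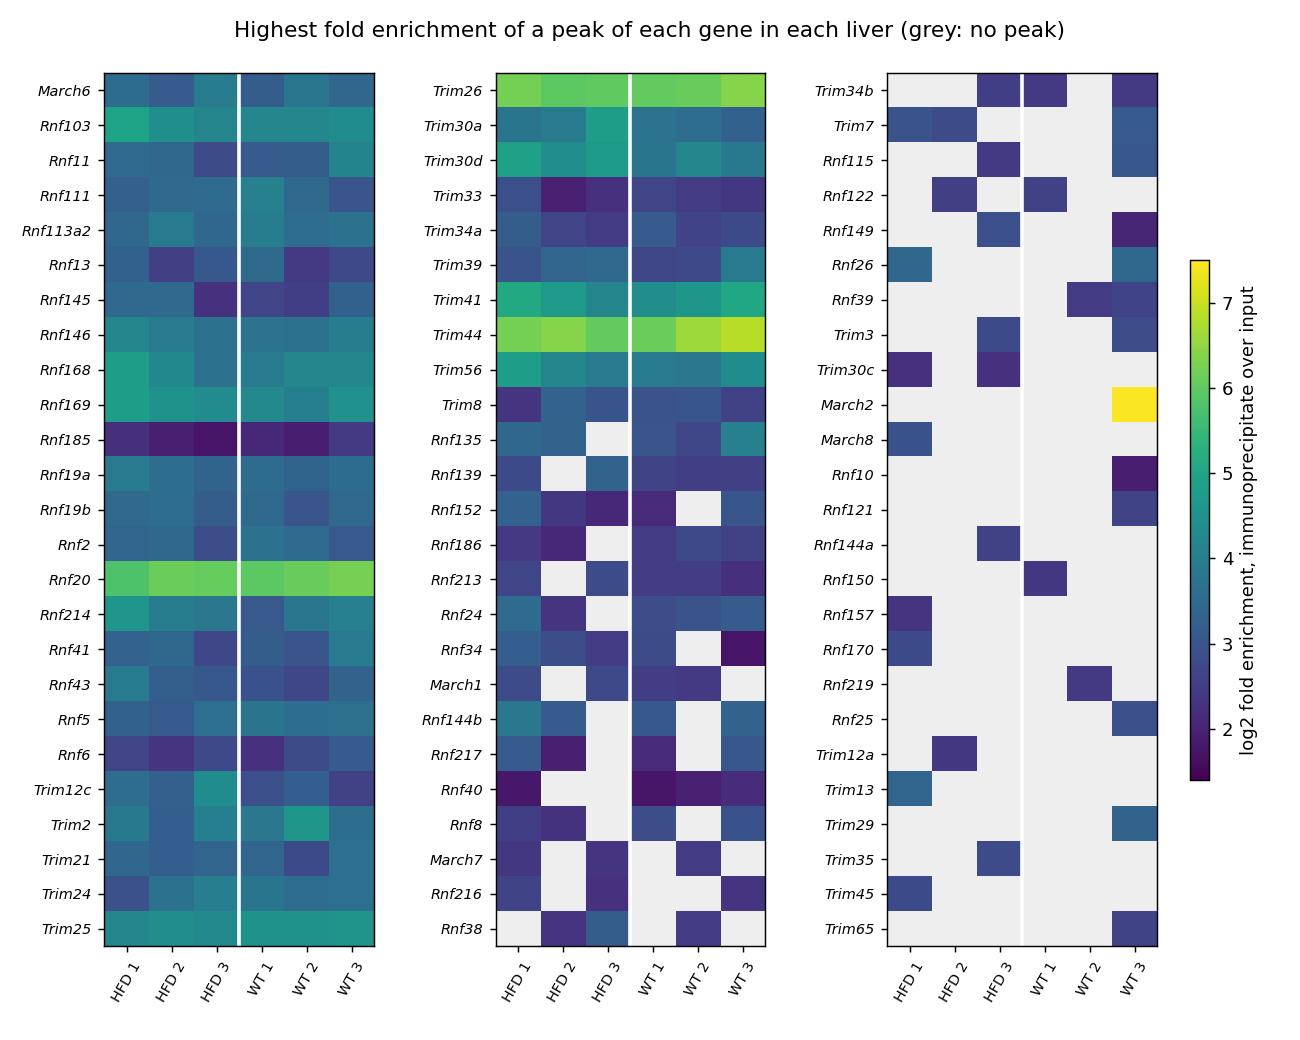
Highest log2 fold enrichment of a peak of each of the 75 members (down the page, sorted by the number of livers with a peak) in the 3 HFD livers left of the white line and the 3 WT livers right of it. Grey marks a liver without a peak of that gene. The first 35 genes are coloured in all 6 livers, and the last 16 in 1 liver only.

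The 47 regions found in all 6 livers lie in 33 genes, with median fold enrichments from 4.05 to 79.2. The highest was in Trim44, on chromosome 2 at 102400013 to 102400900 in GRCm38 coordinates, at one end of the annotated gene. Trim44 had fold enrichments of 74.55, 83.84 and 65.70 in HFD livers, against 70.31, 98.05 and 114.06 in WT livers. Its 2 other regions were low, at 3.73 to 6.82 where present, so the enrichment of this gene was concentrated in a single region of 888 bases. Trim26, a regulator of interferon induction, had 75.35, 62.42 and 64.09 in HFD livers, against 65.44, 67.69 and 83.30 in WT livers, in a region of 1999 bases on chromosome 17 (36857400 to 36859398). Rnf20, which with its partner Rnf40 attaches ubiquitin to histone H2B, had 55.26, 69.58 and 67.08 in HFD livers, against 62.03, 68.18 and 75.92 in WT livers. In Trim44, Trim26 and Rnf20 the HFD and WT ranges overlapped. The median over the 47 regions was 11.2, against 10.2 over all 6245 regions found in all 6 livers, and 27 of the 47 (57.4%, against 51.3% of all) lay above a fold enrichment of 10.

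Trim41 followed with 34.33, 25.44 and 18.06 in HFD livers, against 21.16, 24.64 and 32.70 in WT livers, in 1 region of 1549 bases. Trim25, the ligase that ubiquitinates the RNA sensor RIG-I, had 2 regions above 10 in every liver. The shorter of them, of 96 bases, had 18.62, 21.37 and 19.24 in HFD livers, against 23.10, 22.77 and 15.12 in WT livers. In both genes the groups overlapped. Rnf111, Rnf168 and Rnf169 had the most regions found in all 6 livers, with 3 each, and 8 genes had 2 each (March6, Rnf13, Rnf19b, Rnf2, Rnf214, Rnf43, Trim25 and Trim30d).

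The difference between HFD and WT livers was tested by limma on the log2 fold enrichment of the 6245 regions found in all 6 livers, centred on the median of each library. No region passed an adjusted p of 0.05 (0% of all regions, and 0 of 47 member regions). At an unadjusted p under 0.05 limma named 4 of 47 member regions, against 4.87% of all regions, 3 higher (2.16% of all) and 1 lower in HFD livers (2.71% of all). This count of 4 fell to 0 without WT 1, to 2 without HFD 2, without WT 3 or with lists of equal length, and to 1 with only the upper part of each list. The median difference was -0.01 on the log2 scale over the 47 member regions, 23 of them higher and 24 lower in HFD livers, against -0.02 over all regions. The 4 regions are described next as values that did not pass the adjusted test.

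**Figure D3:**
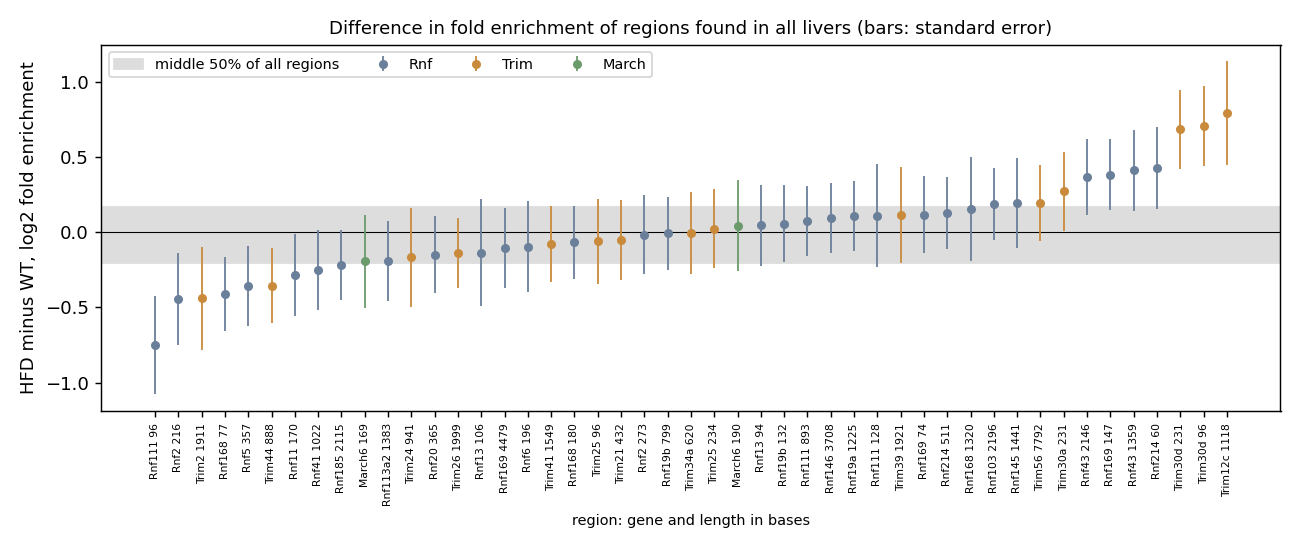
Difference in centred log2 fold enrichment, HFD minus WT, for the 47 member regions found in all 6 livers, each named by its gene and its length in bases, with bars for the standard error of limma. The grey band holds the middle 50% of all 6245 regions. Trim12c and 2 regions of Trim30d stand at the right end and Rnf111 at the left end, and none passed the adjusted test.

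Trim30d, a mouse relative of Trim30a in the innate immune branch of the family, had 2 of the 4 regions. Its region of 231 bases on chromosome 7 (104483332 to 104483562) had fold enrichments of 29.89, 21.34 and 26.30 in HFD livers, against 13.55, 18.64 and 14.69 in WT livers. Every HFD value lay above every WT value, and the means were 25.8 ± 4.29 and 15.6 ± 2.67 (SD, n = 3 each). The difference in log2 fold enrichment was 0.68 with a standard error of 0.26 (limma, unadjusted p = 0.0201, adjusted p = 0.972). Its region of 96 bases (104484178 to 104484273) had 12.79, 11.26 and 8.82 in HFD livers, against 5.21, 8.40 and 6.12 in WT livers, again without overlap. The difference there was 0.71 with a standard error of 0.26 (limma, unadjusted p = 0.0186, adjusted p = 0.968). Both regions had the same bounds in every liver. With a single liver left out the differences were 0.56 to 0.94, and without overlap of the groups their direction could hardly reverse. The unadjusted p of limma then rose to at most 0.0792 for the region of 231 bases and 0.0801 for that of 96 bases.

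Trim12c, a mouse relative of the retrovirus restriction factor Trim5, had 12.06, 9.58 and 20.47 in HFD livers, against 7.47, 9.40 and 5.94 in WT livers, in a region of 1118 bases on chromosome 7 (104339343 to 104340460). The groups did not overlap, but HFD 2 and WT 2 differed little, and HFD 3 was the highest by far. The difference in log2 fold enrichment was 0.79 with a standard error of 0.34 (limma, unadjusted p = 0.0374, adjusted p = 0.999). It was 0.39 without HFD 3, so that liver decided its size.

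Rnf111 (Arkadia), which degrades inhibitors of TGF-beta signaling, had the 1 region that was lower in HFD livers at an unadjusted p under 0.05. This region of 96 bases on chromosome 9 (70430931 to 70431026) had 6.66, 5.63 and 8.16 in HFD livers, against 16.51, 10.01 and 8.07 in WT livers. HFD 3 lay slightly above WT 3, so the groups overlapped, and WT 1 was the highest. The difference was -0.75 with a standard error of 0.32 (limma, unadjusted p = 0.0360, adjusted p = 0.999), and it was -0.43 without WT 1. Beside it, a region of 93 bases of the same gene (70431937 to 70432029) had peaks of 7.74, 9.07 and 7.82 in HFD livers and of 5.54 in WT 3 only. The 2 other Rnf111 regions found in all 6 livers differed by 0.11 and 0.07, less than their standard errors of 0.34 and 0.23, so the regions of this gene did not share a direction.

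Taken by the deposited fold enrichment alone, all HFD values lay above all WT values in 5 of 47 member regions (4.64% of all regions) and below them in 0 (3.68% of all). Besides Trim12c and both Trim30d regions, the 5 comprised a Trim30a region of 231 bases and a Rnf169 region of 147 bases. Trim30a, a mouse inhibitor of Toll-like receptor signaling, had 13.59, 15.08 and 14.48 in HFD livers, against 13.20, 11.92 and 9.79 in WT livers. Its log2 difference was 0.27 with a standard error of 0.26 (limma, unadjusted p = 0.320, adjusted p = 0.999). Rnf169, which binds ubiquitinated histones at DNA breaks, had 20.90, 22.94 and 20.21 in HFD livers, against 16.08, 13.95 and 17.86 in WT livers. Its difference was 0.38 with a standard error of 0.24 (limma, unadjusted p = 0.130, adjusted p = 0.999), and its other regions found in all 6 livers differed by -0.11 and 0.12.

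Of the 5 regions without overlap, 4 lie in the same stretch of chromosome 7, where Trim34a, Trim12a, Trim34b, Trim12c, Trim30c, Trim30a and Trim30d follow each other. These 7 genes held 17 regions within 243565 bases (104244487 to 104488051). HFD 1, HFD 2 and HFD 3 had 10, 10 and 11 peaks there, against 9, 8 and 6 in WT 1, WT 2 and WT 3, so the HFD counts lay above the WT counts, without a test. The genes of the row with a peak numbered 5, 5 and 6 in HFD livers, against 5, 4 and 5 in WT livers, and these overlapped. More HFD than WT livers had a peak in 8 of the 17 regions (29.9% of all regions), more WT than HFD livers in 3 (23.2% of all), and 6 were equal. The row is described because it held the regions without overlap, so its counts are no separate evidence. Of the 5 regions found in all 6 livers, 4 were higher in HFD livers and the median log2 difference was 0.68, and the exception was Trim34a at -0.01. Trim30c, a further Trim30 relative, had a peak in HFD 1 (4.86) and HFD 3 (4.83) and in no WT liver. A second Trim30a region, of 96 bases, had 5.53, 7.39 and 4.36 in HFD livers, against 4.52 in WT 1 only. The 476-base region of Trim30d had 7.16, 7.06 and 6.56 in HFD livers, against 5.21 in WT 2 only.

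Against that direction, the 231-base region of Trim34a had 5.55 in HFD 2 only, against 7.48 and 6.21 in WT 1 and WT 2. The 231-base region of Trim34b had 5.83 in HFD 3 only, against 5.39 and 5.42 in WT 1 and WT 3. These genes are near-identical copies in places, so reads of one may have been placed on another, and the values of single genes of the row are uncertain. Several of them are known to be induced by interferon in leukocytes and hepatocytes. Among 16 leukocyte and Kupffer cell markers, 8 had a peak in any liver, and HFD 1, HFD 2 and HFD 3 had a peak in 4, 6 and 7 of them, against 5, 4 and 5 in WT livers. These markers did not share a direction. Ptprc (CD45), the marker shared by leukocytes, had 9.72, 8.23 and 11.49 in HFD livers and no peak in WT livers. Marco had a peak in HFD 3 only (7.32) and Csf1r in WT 3 only (8.52). Timd4 had 4.83 in HFD 2 and 4.99 in HFD 3, against 6.08, 9.07 and 5.42 in WT livers. Cd5l had 4.79, 5.40 and 5.14 in HFD livers, against 6.00 in WT 1 and 5.66 in WT 3. Itgam had peaks in 2 livers of each group. The Kupffer cell markers Clec4f and Vsig4 had peaks in all 6 livers. Adgre1, Cd68, Lyz2, Cd3e, Cd4, Cd8a, Cd79a and Ms4a1 had no peak in any liver. The part of such cells in the Trim values was not tested.

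**Figure D4:**
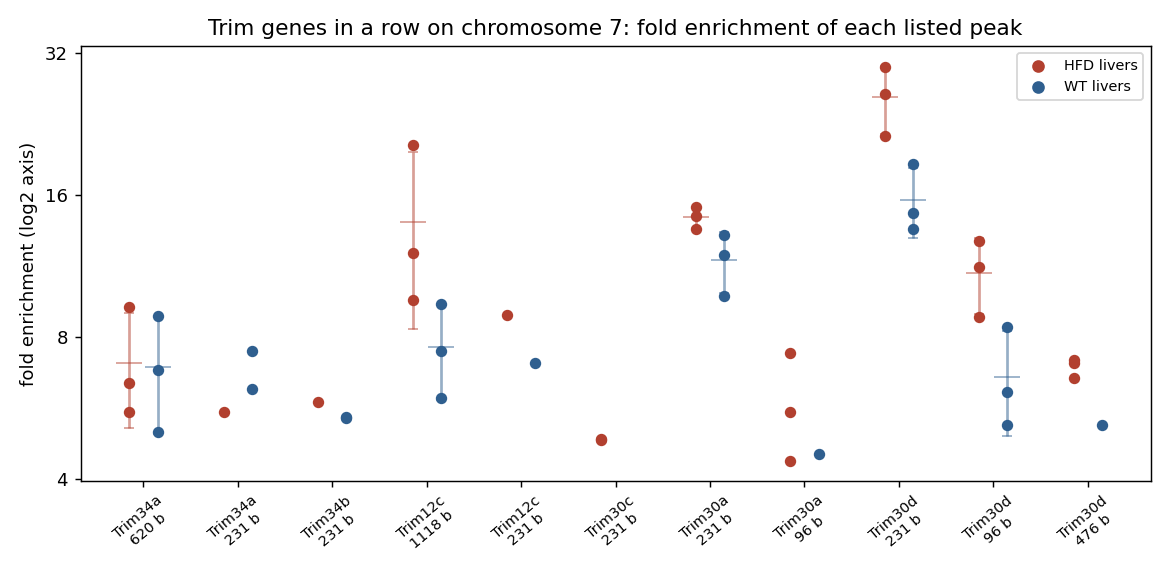
Fold enrichment of each peak (log2 axis) in the 11 regions of the chromosome 7 Trim row that were found in at least 2 livers, in chromosomal order, named by gene and length in bases. Red points left of centre are HFD livers, blue points right of centre are WT livers, and lines give the mean and SD where all 6 livers had a peak. Red lies above blue without overlap in Trim12c (1118 b), Trim30a (231 b) and Trim30d (231 b and 96 b).

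Detection was compared next. No member region had a peak in all 3 HFD livers and no WT liver (0.718% of all regions did), and none had the opposite pattern (0.294% of all). A peak in at least 2 more HFD than WT livers was found for 11 of 151 member regions (6.03% of all regions), and in at least 2 more WT than HFD livers for 2 of 151 (4.1% of all). Of the 11 regions, 5 had peaks in 3 HFD livers and 1 WT liver (2.07% of all regions). The other 6 had peaks in 2 HFD livers and no WT liver (3.24% of all). All 11 had a peak in HFD 1, 9 in HFD 2 and 7 in HFD 3. When each list was shortened to 10109 peaks, the length of the shortest list, 5 member regions leaned to HFD livers and 5 to WT livers (5.01% and 5.41% of all regions). With only the upper part of each list, from its median fold enrichment upward, there were 4 and 1 (6.48% and 4.33% of all). The 5 that leaned to HFD livers in the shortened lists were among the 11 and lie in Rnf11, Rnf111, Rnf169, Trim2 and Trim30d. The 5 that leaned to WT livers there lie in Rnf111, Rnf24, Rnf39, Rnf40 and Rnf8, so Rnf111 had a region in each direction.

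Among the 11, Trim2, an NHL-type ligase known to act on the light neurofilament chain, had a region of 901 bases with 14.65 in HFD 1 and 7.30 in HFD 3 and no peak in WT livers. Its main region, of 1911 bases, had 12.07, 9.36 and 16.37 in HFD livers, against 14.02, 24.69 and 12.20 in WT livers, which overlapped. Rnf34 is a ligase for caspases and p53. Its region of 202 bases had 9.36, 7.23 and 5.49 in HFD livers, against 6.92 in WT 1 only. Rnf152 is a lysosomal ligase that restrains mTORC1. Its region of 1861 bases had 9.97, 5.20 and 4.27 in HFD livers, against 8.16 in WT 3 only. In both regions the single WT peak lay within the range of the HFD livers, and the groups differed in how many livers had a peak. The other Rnf34 region had 4.08 in HFD 1 and 5.39 in HFD 2, against 7.07 in WT 1 and 3.37 in WT 3. The other Rnf152 region had 4.43 in WT 1 only. By gene, Rnf34 and Rnf152 each had a peak in 3 HFD and 2 WT livers. A region each of Rnf11 (4.73 in HFD 1 and 4.08 in HFD 2), Trim33 (5.04 and 3.87) and Rnf169 (4.11 and 3.48) was near the lower end of the lists, whose lowest fold enrichment was 2. Through their other regions Rnf11, Trim33 and Rnf169 had a peak in all 6 livers.

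Both regions found in at least 2 more WT livers belong to genes with no other region. Rnf40, the partner of Rnf20, had 3.49 in HFD 1 only, against 3.39, 3.88 and 4.52 in WT livers, so the peak of HFD 1 lay within the WT range. Rnf39 had no peak in HFD livers and 5.57 in WT 2 and 6.15 in WT 3. WT 2 and WT 3 were also the livers with skeletal muscle markers: of 37 markers a peak was found for 3, 3 and 3 in HFD livers, against 3, 24 and 30 in WT 1, WT 2 and WT 3. The part of muscle RNA in the Rnf39 peaks was not tested. Counted by gene, at least 2 more HFD livers had a peak for 1 of 75 members, Trim30c (5.07% of all genes), and at least 2 more WT livers for 2 members, Rnf39 and Rnf40 (3.15% of all genes). Trim54 and Trim63 had peaks in WT 2 and WT 3 only, so leaving them out lowered this count of WT livers' genes.

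Of the 4 listed ligases of skeletal and heart muscle, Trim7 was the only member. Trim7, which binds the glycogen primer glycogenin, had 7.74 in HFD 1 and 7.06 in HFD 2, against 8.74 in WT 3. Rnf207, Trim55 and Trim72, which are heart and muscle proteins, had no peak in any liver. Trim54 and Trim63, which the rule left out as muscle markers, had peaks in WT 2 and WT 3 only, the livers with most muscle markers.

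Grouped by role, 9 of 15 listed ligases of DNA damage and chromatin had a peak, 7 of them in all 6 livers. Rnf168, which ubiquitinates histone H2A at DNA breaks, had 3 regions in all 6 livers. The highest of them, of 180 bases, had 19.99, 18.99 and 12.95 in HFD livers, against 15.12, 18.64 and 18.36 in WT livers, and the log2 difference of -0.07 was less than its standard error of 0.24. Rnf2 (Ring1b), the Polycomb ligase for histone H2A, had a region of 216 bases with 7.33, 8.68 and 7.27 in HFD livers, against 12.99, 11.54 and 7.09 in WT livers, which overlapped. Rnf8, which acts before Rnf168 at DNA breaks, had 5.76 in HFD 1 and 4.87 in HFD 2, against 7.12 in WT 1 and 7.69 in WT 3. The 13 regions of this list found in all 6 livers had a median difference of -0.07, with 5 higher and 8 lower in HFD livers. The Rnf111 region was the only 1 of the 13 with an unadjusted p under 0.05.

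Of 22 listed genes of innate immunity and interferon, 14 had a peak, 8 of them in all 6 livers. Their 10 regions found in all 6 livers had a median difference of 0.11, with 6 higher and 4 lower in HFD livers. All 3 with an unadjusted p under 0.05, in Trim12c and Trim30d, lie in the chromosome 7 row. Outside that row the values lay closer to 0. Trim21, the antibody receptor of the cytosol, had 10.69, 7.70 and 10.49 in HFD livers, against 10.42, 6.80 and 12.41 in WT livers, and a log2 difference of -0.05. Trim56, which promotes interferon signaling, had the longest member region found in all 6 livers, 7792 bases, with 27.60, 18.00 and 14.76 in HFD livers, against 15.35, 14.04 and 20.76 in WT livers. This region joined several peaks, with 3 in WT 1, and each value is the highest peak of that liver. Rnf135 (Riplet), which activates RIG-I, had 10.92 in HFD 1 and 10.06 in HFD 2, against 8.01, 6.51 and 16.65 in WT livers. Rnf213, a large ligase found on lipid droplets, had 3 regions of at most 7.01 in any liver, and none was in all 6.

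All 10 listed genes of the endoplasmic reticulum and sterol metabolism had a peak, 5 of them in all 6 livers. Rnf103 had the highest values, 30.60, 21.63 and 17.95 in HFD livers, against 18.82, 18.78 and 20.78 in WT livers. March6, which degrades the cholesterol enzyme squalene monooxygenase, had 11.77, 8.91 and 15.49 in HFD livers, against 9.17, 13.92 and 10.63 in WT livers, in its higher region. Rnf5, a ligase of misfolded membrane proteins, had 9.83, 8.74 and 12.39 in HFD livers, against 13.34, 12.21 and 12.57 in WT livers. In these genes the groups overlapped, for Rnf5 only through HFD 3 against WT 2. Rnf145 and Rnf139 (Trc8) are sterol-linked ligases that act on HMG-CoA reductase. Rnf145 had 11.16, 11.11 and 4.82 in HFD livers, against 6.42, 5.77 and 9.88 in WT livers, which overlapped. Rnf139 had 6.79 in HFD 1 and 10.16 in HFD 3 and no peak in HFD 2, against 6.23, 5.82 and 5.86 in WT livers. Both HFD peaks of Rnf139 lay above its WT peaks, but HFD 2 had none. The median difference over 6 regions of this list was -0.08, with 3 higher and 3 lower in HFD livers and 0 at an unadjusted p under 0.05.

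Of 18 listed ligases of endosomes and the plasma membrane 10 had a peak, 3 of them in all 6 livers, and 0 had one in all 6 with only the upper part of each list. Rnf43, which removes Wnt receptors from the cell surface, had 14.92, 9.46 and 8.44 in HFD livers, against 7.67, 6.50 and 10.17 in WT livers, in its region of 2146 bases. Its other region, of 1359 bases, had 12.10, 8.27 and 6.64 in HFD livers, against 6.16, 4.58 and 9.18 in WT livers. In both regions the groups overlapped through WT 3. Both had the same order of livers, with HFD 1 highest, then WT 3 and HFD 2, and WT 2 lowest. HFD 1, WT 3 and HFD 2 also had the highest medians over all regions found in all 6 livers (11.89, 11.44 and 10.43). The log2 differences of the Rnf43 regions, centred on these medians, were 0.37 and 0.41 with standard errors of 0.25 and 0.27 (limma, adjusted p = 0.999 for both). Rnf11, an adaptor ligase of endosomes, had 11.48, 11.06 and 6.88 in HFD livers, against 8.86, 9.21 and 17.69 in WT livers, in the region found in all 6. Rnf13, an endosomal ligase, had 9.76, 4.12 and 8.51 in HFD livers, against 11.46, 5.43 and 6.68 in WT livers, in its higher region. March1, which removes MHC class II from the surface of antigen-presenting cells, had 7.02 in HFD 1 and 6.66 in HFD 3, against 5.73 in WT 1 and 5.37 in WT 2.

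Rnf146 was the only detected gene of the list named mitochondrion and peroxisome, and it is best known for binding poly-ADP-ribosylated proteins such as axin. It had 18.47, 15.31 and 12.98 in HFD livers, against 13.24, 13.09 and 15.93 in WT livers, which overlapped. In the RING-between-RING ligases, 6 of 8 listed genes had a peak, and Rnf19a and Rnf19b had one in all 6 livers. Rnf19a had 15.31, 12.13 and 10.39 in HFD livers, against 11.73, 10.23 and 11.74 in WT livers. Rnf19b had 11.29, 12.06 and 8.06 in HFD livers, against 11.11, 7.01 and 11.43 in WT livers, in its higher region. Rnf144b had 14.09 in HFD 1 and 9.05 in HFD 2, against 8.52 in WT 1 and 10.06 in WT 3. Each of these genes varied between livers of the same diet by as much as between the diets.

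The members seen in 1 liver only include 5 of HFD 1 and 6 of WT 3. March2 had the highest value of any member, 176.15 in WT 3, but its region on chromosome 17 (33685692 to 33687444) carries the peaks of Hnrnpm in the other lists, so this value cannot be told apart from the neighbouring gene. Trim13, a ligase of the endoplasmic reticulum, had 10.44 in HFD 1, March8 had 7.64 in HFD 1 and Trim29 had 10.14 in WT 3. Trim35 had 6.99 in HFD 3, Rnf170 and Trim45 each had 6.84 in HFD 1, and Rnf25 had 7.46 in WT 3. Rnf121 and Trim65 each had 6.29 in WT 3. Apart from March2, these values lay between 6.29 and 10.44, below the median of 11.2 for member regions found in all 6 livers.

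The lengths of the regions were not used by the rule, and 2 lengths, each found in at least 3 Trim regions, were picked after the values were seen. A length of exactly 231 bases was found for 8 of 53 Trim regions (15.1%), for 0 of 98 Rnf and March regions, and for 33 of all 18374 regions (0.180%). The 8 regions lie in 8 genes, Trim12c, Trim21, Trim30a, Trim30c, Trim30d, Trim34a, Trim34b and Trim35, and make up 24.2% of all regions of that length. A length of 96 bases was found for 4 Trim regions (7.55%), in Trim25, Trim30a, Trim30d and Trim41, for 2 Rnf regions (2.04%), in Rnf111 and Rnf6, and for 80 of all regions (0.435%). Trim30a and Trim30d each had a region of both lengths. Trim35 and Trim21 lie outside the chromosome 7 row, Trim35 on chromosome 14, so the shared length was not limited to the row. Genes that arose by duplication are not independent observations, and exon positions were not used here.

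**Figure D5:**
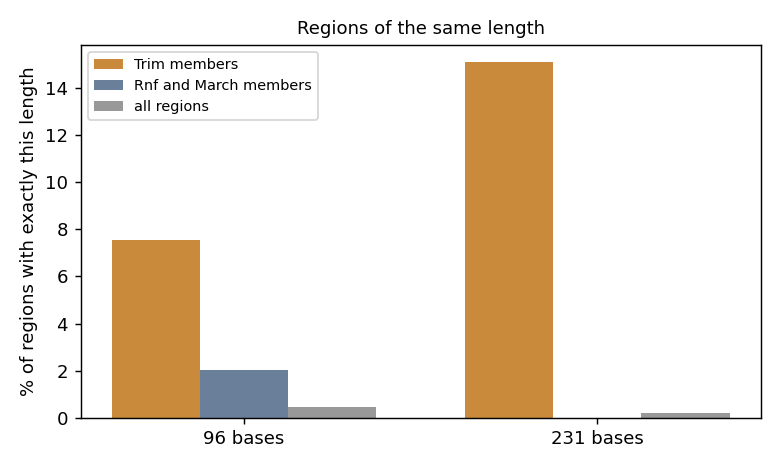
Percent of regions with a length of exactly 96 or 231 bases among the 53 Trim regions, the 98 Rnf and March regions and all 18374 regions. At 231 bases the bars stand at 15.1%, 0% and 0.180%, and at 96 bases at 7.55%, 2.04% and 0.435%.

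Of the 47 member regions found in all 6 livers, 30 had identical start and end in every list (63.8%, against 63.4% of all such regions). Their lengths ran from 60 to 7792 bases with a median of 432 (327 over all), and 17 were longer than 1000 bases (36.2%, against 26.9% of all). The shortest lies in Rnf214 and had 23.75, 15.89 and 14.01 in HFD livers, against 8.55, 13.96 and 16.66 in WT livers, which overlapped. The nearer end of the annotated gene was within 1000 bases of 15 of the 47 regions (31.9%, against 31.7% of all), and the region reached the end of the gene in 10 (21.3%, against 16.6% of all), among them those of Trim44, Trim26, Trim56, Rnf146 and Rnf103. Which end this was, and whether a region was exonic or untranslated, was not analysed here. The members lie on 18 chromosomes, 12 of them on chromosome 7 and 10 on chromosome 11.

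The rest of the pathway was examined with lists of other RING ligases and of E1 and E2 enzymes. Of 65 other RING ligases 43 had a peak, 25 of them in all 6 livers, and of 37 E1 and E2 enzymes 23 had a peak, 11 of them in all 6. At least 2 more HFD livers had a peak for the conjugating enzymes Ube2a (5.85, 4.71 and 5.02 in HFD livers, against 7.54 in WT 3) and Ube2j1 (5.24, 6.96 and 4.58 in HFD livers, against 4.39 in WT 2). That was 2 of 23 E1 and E2 enzymes and 0 of 43 other RING ligases, against 5.07% of all genes. Ube2j1 serves the degradation of endoplasmic reticulum proteins, the branch of Rnf5 and March6. At least 2 more WT livers had a peak for Hltf and Shprh (2 of 43 other RING ligases) and for the mitotic enzyme Ube2c (1 of 23), against 3.15% of all genes. Ube2c had no peak in HFD livers and 13.61 and 18.70 in WT 2 and WT 3. These are the livers with 24 and 30 skeletal muscle markers, and the part of muscle RNA in the Ube2c peaks was not tested. None of the regions of these lists passed the adjusted test of limma, in which the 36 regions of other RING ligases had a median log2 difference of 0.03 and the 17 regions of E1 and E2 enzymes one of -0.01. At an unadjusted p under 0.05 there were 2 of 53 such regions, against 4.87% of all regions, in Ubr3 (0.57) and Ube2v1 (0.65), both higher in HFD livers.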

How the data were processed

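MeRIP-seq of 6 m6A immunoprecipitates (3 HFD, 3 WT) was analysed; the 6 inputs were not analysed here. The submitters' processing notes list MACS2 2.1.0, Bowtie 1.1.2, Trimmomatic 0.33 and bcl2fastq 2.17, and a human build, although the genes are those of the mouse. Gene IDs and bounds were looked up in RefSeq (GRCm38), where all 75 members were found and 150 of 151 member regions overlapped their own gene (the exception is Trim65). The authors called peaks in each library against its input, and the deposited fold enrichment is a ratio of the immunoprecipitate over its input, unscaled between libraries. The deposited score is minus 10 times the log10 of the p-value and is at least 50, and the deposited peak length is in bases. The deposited false discovery rate is a percent, with a lowest value of 25 and a highest of 100, and peaks were not filtered by it here. The depth of each library is unknown, and no detection limit was computed. No per-sample column was left unmapped (0).

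Peaks of the 6 lists were merged where they overlapped by at least 1 base, the highest fold enrichment of a library stood for a region, and a member region used only peaks assigned to the member. Regions found in all 6 livers were tested by limma 3.58.1 in R 4.3.3 (two-sided, log2 scale, centred on library medians, Benjamini-Hochberg over all 6245 regions), and the fit was tested on simulated data. Counts and tables were made with Python 3.11.15 and pandas 2.3.3. Whether the mice of a group were otherwise independent is not stated, so p-values measure the spread between these livers. A permutation test of 3 against 3 cannot go below an exact p of 0.1, so none is given. A planned description of transcript segments and motifs was replaced by region lengths, identical bounds and distances to gene ends, since no genome sequence, strand or exon positions were used.

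The members and the gene lists were chosen with earlier results of these data known. Genes were named by a rule: those with a region in one group only or past the threshold, up to 6 in each direction with at least 2 more livers of one group, the 8 highest and the 5 with most regions among those found in all 6 livers, up to 3 per role list, the muscle list, and up to 10 seen in 1 liver only. Rnf2, Rnf6, Rnf8, Rnf24, Rnf135, Rnf139, Rnf145, Rnf213, Rnf214, March1, Trim12a, Trim12c, Trim21, Trim30c, Trim33, Trim34a, Trim34b, Trim56 and the other pathway genes were chosen after their values were seen. Alternatives changed the overlap (0.5 of the shorter peak), the peaks used, the list length, the normalization, the value of a region, a filter at a fold enrichment of 4, the replicate block and the livers used.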

Additional observations from a re-analysis of the deposited data

How the results depend on the processing

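Depth limits every absence: a missing peak may be an unmethylated, a weakly expressed or a thinly sequenced transcript. The count of regions past an adjusted p of 0.05 by limma was 0 (304 at an unadjusted p under 0.05) and was 0 under every alternative (147 to 315 at an unadjusted p under 0.05) except leaving out a liver, where it ranged from 0 to 2 (2 without HFD 3, in Slc17a4 and Huwe1, and 1 without WT 2, in Cyp2a22), none of them in a member. Member regions of HFD livers only were 6, against 0, when at least 2 livers of the group were asked for, and 0 to 4 with a liver left out. The 6 had peaks in exactly 2 HFD livers (3.97% of member regions, against 3.24% of all regions). Those of WT livers only were 1, against 0, at that criterion and with lists of equal length, and 0 to 1 with a liver left out. The 1 at that criterion had peaks in exactly 2 WT livers (0.662% of member regions, against 2.45% of all). Member regions with at least 2 more HFD livers were 11, but 5 with lists of equal length and 4 with stricter peaks (the upper part of each list, from its median fold enrichment upward), and those with at least 2 more WT livers were 2, but 5 and 1; these alternatives were added after the data were seen. Other ubiquitin genes with a peak in all 6 lists were 36, but 21 with stricter peaks, and among the role lists members in all 6 fell with stricter peaks to 4 of 7 (DNA damage), 5 of 8 (innate immunity), 3 of 5 (endoplasmic reticulum) and 0 of 3 (endosome). The difference in members with a peak ranged from -3.67 to 3.33 with a liver left out, and the median difference of member regions from -0.00 to 0.04. The 4 member regions with an unadjusted p under 0.05 kept their direction wherever they could be tested. This is no separate evidence, because they were picked for their difference in the same data. Their unadjusted p by limma rose to 0.223 for Trim12c without HFD 3 and to 0.208 for Rnf111 without WT 1.

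With the replicate number as a block, 0 regions passed (248 at an unadjusted p under 0.05, 2 of them in members), the median difference of member regions stayed at -0.01 and the difference in members with a peak at -0.667. The numbers did not pair the livers: deviations of same-numbered livers correlated at -0.04, 0.02 and -0.22 across regions, and not every liver was closest to its own number. Alternatives for sequence and position (width of the window, regions counted) were not run, since no genome was used.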
